A study of Drosophila melanogaster with 6 samples.

Results

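The Acp, Sfp and Mst57D genes encode seminal fluid proteins of Drosophila melanogaster, the secreted proteins and peptides that a male passes to the female together with sperm. Members were taken by symbol: every gene whose FlyBase symbol starts with Acp or Sfp followed by a digit, plus Mst57Da, Mst57Db and Mst57Dc, without the cuticle genes Acp1 and Acp65Aa. This gave 48 genes out of the 16942 with a count in any library, made up of 17 Acp genes, 28 Sfp genes and 3 Mst57D genes.

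Most seminal fluid proteins are made in the accessory glands, paired secretory organs in the male abdomen whose epithelium holds main cells and secondary cells, and others come from the ejaculatory duct and bulb. After mating they act in the female on ovulation, sperm storage, feeding and remating. Males that have met rivals are known to mate for longer and to adjust the seminal fluid they transfer.

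The samples came from wild-type Dahomey males kept with rival males, as 3 pools of 40 body parts each: abdomen after 2 h with rivals, head plus thorax after 2 h, and head plus thorax after 26 h. All males were raised at 100 larvae per vial, held 10 per vial after eclosion, and put in individual vials at 1 day old for 5 days before freezing. The labels give no further age and no pool without rivals, so length of exposure and time cannot be told apart. RNA of each pool was divided into 2 libraries, called split library 1 and split library 2, and sequenced as single-end reads of 50 nt.

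With 1 pool per group, no difference between pools has a biological replicate check. The SD, SE and p-values given here measure the spread between split libraries, which is technical, and they compare these pools and not the conditions. Library totals ran from 21070598 to 34217543 counts. Levels are given in CPM, counts scaled to a common effective library size. In bulk tissue, fewer cells of a type and less RNA per cell cannot be told apart. In summed CPM, eye markers were far higher in head-thorax, and testis and sperm markers far higher in abdomen. The 8 eye genes that overlap no other gene summed to 10258.9 CPM in head-thorax at 2 h and 20.7 CPM in abdomen, which was 0.202% of the head-thorax level. Over all 16 eye genes, with those that overlap another gene, abdomen stood at 3.04% (402 CPM). The 22 testis and sperm genes that overlap no other gene summed to 6050.1 and 6169.2 CPM in the abdomen libraries against 23.1 and 17.5 CPM in head-thorax at 2 h, and all 37 measured genes of that list to a mean of 10998.2 against 459 CPM.

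The members were small genes on the autosomes. Their median merged exon length was 409.5 bp, against 1752 bp over 13565 protein-coding genes in the files, and 26 of 48 encode a protein under 100 amino acids (54.17%, against 5.62% of protein-coding genes). Acp98AB had the shortest annotated protein, 25 amino acids, and Acp36DE the longest, 912. Of the members, 17 had 1 exon, 26 had 2 and 5 had 3. Chromosome arm 2L carried 23 members (47.92%, against 19.13% of protein-coding genes), 2R and 3L carried 8 each and 3R carried 9. No member was on the X chromosome, which carried 15.61% of protein-coding genes.

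Several members lay side by side on 1 strand. In BDGP6.54, Mst57Dc, Sfp96F, Mst57Db and Mst57Da occupied 2579 bp of 3R from 25829321 to 25831899. Sfp53D, Acp53C14a, Acp53C14b, Acp53Ea and Acp53C14c filled 7201 bp of 2R from 16744295 to 16751495. Sfp24Ba, Sfp24Bd, Sfp24Bb and Sfp24Bc lay within 2605 bp of 2L (3667977 to 3670581), Sfp33A4, Sfp33A2 and Sfp33A3 within 3087 bp of 2L (11837243 to 11840329), and Acp26Ab and Acp26Aa within 1599 bp of 2L (5892298 to 5893896). The files carry no coordinates, and the annotation was used for names, positions and lengths only.

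In the abdomen pool every member was detected. Together they took 1.42% and 1.4% of all counts in the split libraries, or 300032 and 439238 counts. The summed level was 12559.5 ± 164 CPM (SD, n = 2 split libraries). Member levels ran from 10.1 CPM for Sfp33A2 to 2031.2 CPM for Acp36DE, with a median of 86.1 CPM. There were 8 members at 500 CPM or more, 15 from 100 to 500 CPM, 8 from 50 to 100 CPM and 17 under 50 CPM.

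A few genes supplied most of the members' reads. Acp36DE, a large protein needed for sperm storage in the female, had 48736 and 70718 counts in the abdomen libraries, which was 16.2% of all member reads, and ranked 44 among all genes of that pool. Mst57Db, a short accessory gland peptide, followed with 29255 and 43601 counts and 9.86% of member reads. Mst57Da had 24186 and 36636 counts, Sfp87B 21785 and 31761, and Acp98AB 18357 and 26973. These 5 genes held 47.6% of member reads, the top 10 held 71.0%, and the lower 24 genes held 6.76%. The remaining genes of the top 10 were Acp95EF (753 CPM), Sfp60F (661 CPM), Acp54A1 (625 CPM), Acp53C14a (469 CPM) and Acp53C14b (422 CPM).

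By name group, the 17 Acp genes supplied 55.3% of member reads at a median of 299 CPM, the 28 Sfp genes 24.1% at a median of 37.6 CPM, and the 3 Mst57D genes 20.6%. The Acp group ran from 30.9 CPM for Acp53C14c upward, and the Sfp group from 10.1 CPM up to 910 CPM for Sfp87B, so the groups overlapped. Among members with a known action, Acp26Aa, the ovulin that stimulates ovulation, stood at 335 ± 7.83 CPM. Its neighbour Acp26Ab, which encodes a short peptide, was at 58 ± 1.77 CPM. Acp62F, a trypsin inhibitor, was at 226 ± 2.73 CPM, Acp76A, a serpin, at 150 ± 3.93 CPM, and Acp29AB, a lectin that acts in sperm storage, at 55.6 ± 1.56 CPM. The 3 lowest members were Sfp33A2 (247 and 348 counts in the abdomen libraries), Sfp24Bc (243 and 372 counts) and Sfp23F (248 and 381 counts).

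**Figure D1:**
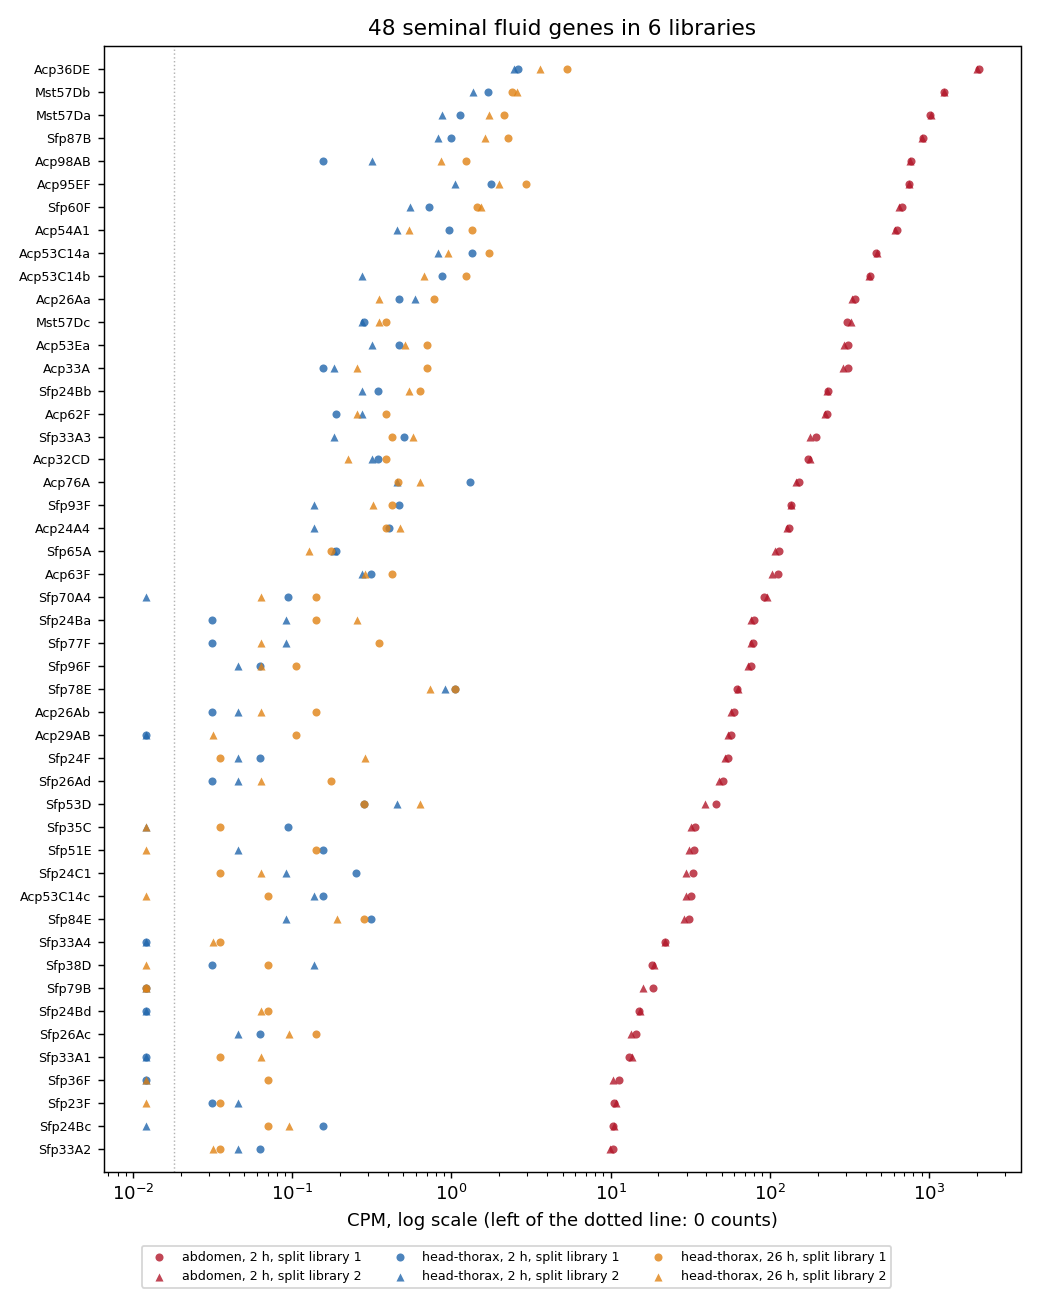
Level of each of the 48 members, from the highest to the lowest in abdomen, in CPM on a log scale, with 1 point per library. Circles are split library 1 and triangles split library 2, and points left of the dotted line had 0 counts. The abdomen points run from 10.1 to 2031.2 CPM, and no member has a head-thorax library at or above its abdomen libraries.

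Levels of different genes were compared per kilobase of merged exons (RPKM), which changed the order. Mst57Db was highest at 6336.3 RPKM, then Acp98AB at 4399.1, Mst57Da at 3168.7, Acp95EF at 3096.8 and Sfp87B at 2298.2 RPKM. The closest of these, Mst57Da and Acp95EF, did not overlap between split libraries. Acp36DE, first by CPM, was 11th by RPKM at 695. Sfp38D was lowest at 15.0 RPKM, which put the range at 422-fold. The median was 174 RPKM over all members and 471 RPKM over the Acp genes against 78.3 RPKM over the Sfp genes.

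Neighbouring genes of a cluster differed widely in level per length. In the Mst57D cluster, Mst57Db and Mst57Da reached 6336.3 and 3168.7 RPKM, Mst57Dc 831 RPKM and Sfp96F 442 RPKM. In the 2R cluster, Acp53C14b, Acp53C14a and Acp53Ea lay close together at 715, 666 and 647 RPKM, whereas Acp53C14c was at 54.7 and Sfp53D at 51.7 RPKM. In the Sfp24B cluster Sfp24Bb was at 506 RPKM, Sfp24Ba at 149, Sfp24Bd at 39.7 and Sfp24Bc at 26.9 RPKM. In the Sfp33A cluster Sfp33A3 was at 446 RPKM, Sfp33A4 at 90.4 and Sfp33A2 at 30.1 RPKM. Acp26Aa was at 350 RPKM and Acp26Ab at 115 RPKM. No label or header says how reads that match more than 1 gene were placed, so values of related neighbours can share reads.

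**Figure D2:**
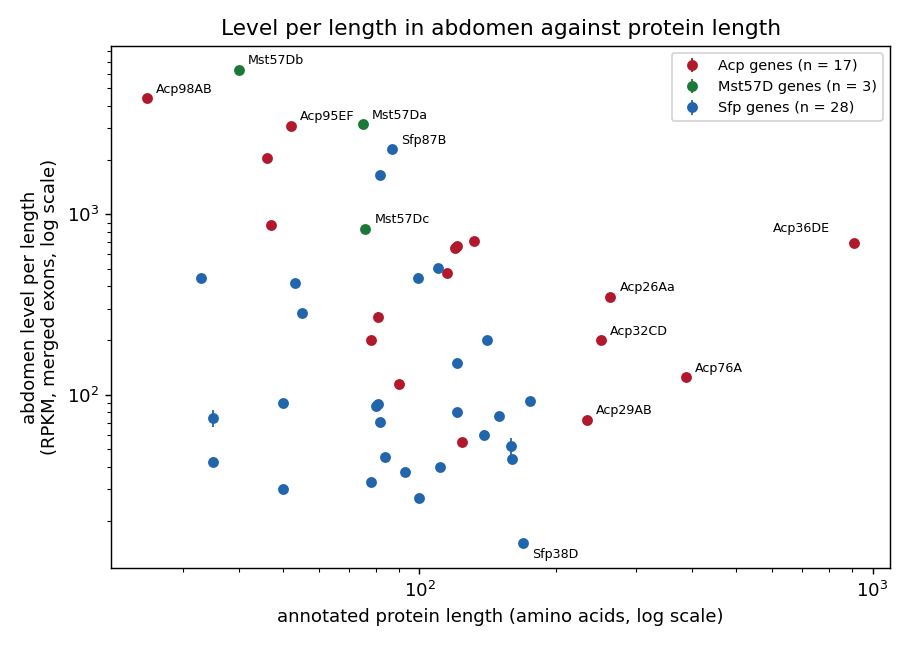
Level per length in abdomen (RPKM over merged exons, mean of 2 split libraries with SD bars, log scale) against annotated protein length in amino acids (log scale), coloured by name group. The 4 highest points, from 3096.8 to 6336.3 RPKM, all encode proteins of 75 amino acids or fewer, and Acp36DE stands alone at 912 amino acids and 695 RPKM.

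In abdomen the 2 split libraries gave close member values. On the CPM scale the ratio of split library 1 to split library 2 lay between 0.95 and 1.17 for every member, and the median SD was 2.63% of the mean. Split library 1 was the higher for 36 of 48 members, against 45.2% of all genes tested. By an exact binomial test with Benjamini-Hochberg adjustment over all genes, 7 of 48 members differed between the split libraries (2.19% of 14765 genes did). These were Acp33A, Acp36DE, Sfp33A3, Sfp53D, Mst57Dc, Sfp60F and Acp53Ea. The test finds smaller splits in genes with more counts, and on library totals Acp36DE passed at a ratio of 1.02 and Sfp60F at 1.04. The shares of members and of all genes that passed were not matched for depth. Acp33A had 7319 and 10166 counts, a ratio of 1.07 after division by library totals (adjusted p = 0.00172, exact binomial test). Sfp53D had the widest ratio, 1.17, from 1082 and 1378 counts. Mst57Dc was the one of the 7 that was lower in split library 1, at a ratio of 0.946 on library totals, which differ slightly in scale from the effective sizes behind CPM.

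Abdomen was then set against head-thorax at 2 h, which asks how far these transcripts belong to the body part that holds the reproductive tract. All 48 members were higher in abdomen by edgeR's quasi-likelihood test at an adjusted p under 0.05 and at least 2-fold, where 35.6% of the 14694 genes tested were higher. Both abdomen libraries were above both head-thorax libraries for all 48, as for 49.0% of all genes tested. The median log2 ratio was 9.51 over the members and 0.056 over all genes tested. Every member passed the filter on low counts through its abdomen libraries. All 48 were also called with no filter. The 31 members that overlap no other gene were all higher, at a median of 9.63.

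Head-thorax at 2 h held only trace reads of the members. They summed to 663 and 328 counts in its split libraries, or 20.8 and 15.0 CPM, against 12675.6 and 12443.4 CPM in abdomen, a 703-fold difference of the means. In this pool 6 members had 0 counts, 11 had 1 to 3 counts, 17 had 4 to 19 and 14 had at least 20. The 6 at 0 were Acp29AB, Sfp24Bd, Sfp33A1, Sfp33A4, Sfp36F and Sfp79B. With a floor of 3 counts for the whole pool, Acp29AB was at least 995.1-fold higher in abdomen. Sfp33A4 was at least 396.2-fold higher in abdomen, Sfp79B 305.4-fold, Sfp24Bd 274.0-fold, Sfp33A1 240.2-fold and Sfp36F 192.4-fold, each as a lower bound. Sfp79B was the one member with 0 counts at 26 h as well.

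Among the 14 members with at least 20 counts in head-thorax at 2 h, the smallest ratios of abdomen to head-thorax were those of Sfp78E and Acp76A. Sfp78E had 1478 and 2241 counts in abdomen and 34 and 20 in head-thorax at 2 h, a ratio of 62.91 (95% exact counting interval 48.11 to 83.91). It overlaps an exon of CG11248 on the opposite strand, a gene with 527 and 377 counts in head-thorax, and reads of the 2 genes cannot be separated. Acp76A overlaps no gene and had 3611 and 5189 counts in abdomen against 42 and 10 in head-thorax, a ratio of 154.6 (117.8 to 207.2). Next came Acp53C14a at 414.8 (322.8 to 542.5), Sfp33A3 at 497.8 (322.1 to 815.2) and Acp95EF at 506.6 (406.9 to 639.0). Acp95EF overlaps an exon of Spase22-23 on the opposite strand, a gene with 1130 and 788 counts in head-thorax at 2 h. The largest ratios in this set were 1013 for Sfp60F (728.3 to 1455), 1010 for Mst57Da (776.0 to 1341), 978.3 for Sfp87B (741.9 to 1318), 819.2 for Acp54A1 (603.7 to 1142) and 792.3 for Mst57Db (639.9 to 993.4). Without split library 1 of head-thorax at 2 h the log2 ratio went from 7.27 to 8.41 for Acp76A, from 8.95 to 10.02 for Sfp33A3, which had 16 and 4 counts there, and from 9.67 to 10.47 for Acp54A1, so their places in this order rest on that library. Acp98AB, at 770 CPM in abdomen, had just 5 and 7 counts in head-thorax, below the 20 needed for this set, and a ratio of 3451 (1975 to 6679).

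Across the members the trace reads followed the abdomen levels in rank, but not in equal shares. Expressed as a share of the abdomen CPM, the summed level in head-thorax came to 0.142% for the 2 h pool and 0.223% for the 26 h pool. The lower and upper quartiles of the members were 0.0745% and 0.294% at 2 h, and 0.156% and 0.318% at 26 h. The full range of the members was 0 to 1.59% at 2 h and 0 to 1.41% at 26 h, and their abdomen levels ran from 10.1 to 2031.2 CPM. The rank correlation between abdomen and head-thorax counts over the 48 members was 0.8 at 2 h and 0.9 at 26 h, given as a description, since the points share their libraries and gene lengths. Acp36DE made up 16.2% of member reads in abdomen, 13.9% in head-thorax at 2 h (95% exact binomial interval 11.8 to 16.2) and 15.9% at 26 h (14.2 to 17.7). The interval of a member's share in head-thorax held its abdomen share for 31 of 48 members at 2 h and 36 of 48 at 26 h. Intervals are wide where counts are few, so this says little for the 6 members with 0 counts and the 11 with 1 to 3 at 2 h. Of the 14 members with at least 20 counts at 2 h, the interval left out the abdomen share for Acp53C14a, Sfp60F, Acp76A, Sfp78E, Sfp87B, Acp95EF and Mst57Da. Sfp24Bc, Sfp53D, Acp53C14a, Acp76A, Sfp78E, Sfp84E and Acp95EF had a larger share than in abdomen in both head-thorax pools, and Mst57Dc and Acp98AB a smaller one in both.

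Other transcripts of the male reproductive tract were at widely different shares of their abdomen level. Of 9 ejaculatory duct and bulb genes 7 were higher in abdomen and 1, EbpIII, was lower. Ebp, a gene of the ejaculatory bulb, was at 0.105% of abdomen at 2 h and 0.206% at 26 h, EbpII at 0.116% and 0.218%, but CG5162 was at 28.3% and 15.9%, Est-6 at 111% and 74.4% and EbpIII at 304% and 170%. Est-6 overlaps 1 other gene, and EbpIII and CG5162 overlap none. The gene SP, which encodes the sex peptide, was at 0.0907% and 0.205%. The median over 25 other seminal fluid genes that overlap no other gene was 0.156% at 2 h and 0.24% at 26 h, and over 22 testis and sperm genes 0.22% and 0.563%. Of the 33 measured genes in the list of other seminal fluid genes 29 were higher in abdomen and 1, hdly, was lower. The 25 of this list that overlap no other gene were all higher, while hdly overlaps 1 gene. The highest of that list by abdomen level were CG17097 (log2 ratio 9.44), CG31872 (9.59), Spn77Bc (9.49) and Pif1B, which overlaps 4 genes and did not pass (−0.43). Whether reads of abdominal RNA reached the head-thorax libraries, or cells there carry these transcripts, was not tested.

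**Figure D3:**
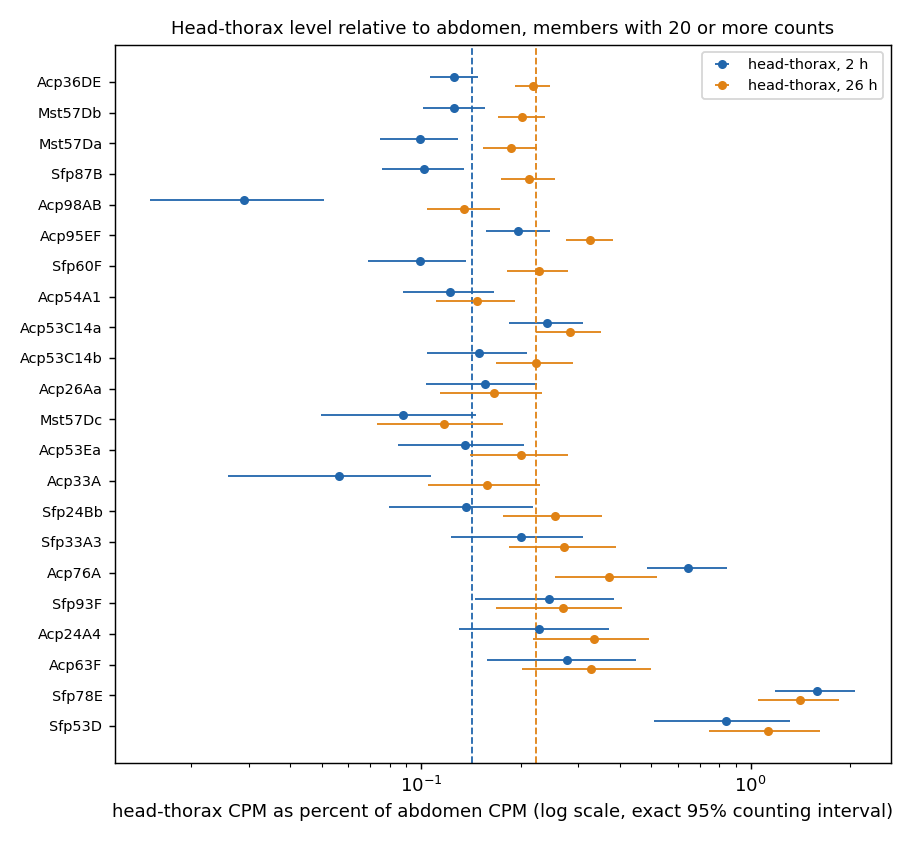
Head-thorax CPM as a percentage of abdomen CPM (log scale) for the 22 members with at least 20 counts in either head-thorax pool, with exact 95% counting intervals, ordered by abdomen level. Dashed lines mark the summed level of all members, 0.142% at 2 h and 0.223% at 26 h. Most points lie near the lines, Sfp78E, Sfp53D and Acp76A lie to the right, and Acp98AB and Acp33A at 2 h lie farthest to the left.

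Of the regulators of the accessory gland, prd, a homeodomain factor required for gland development, had 402 and 629 counts in abdomen and 1 and 1 in head-thorax at 2 h (log2 ratio 8.72). Abd-B, the Hox gene of the posterior abdomen that acts in secondary cells, was higher in abdomen at 4.34 and abd-A at 2.41. The orphan nuclear receptor gene Hr39 (−0.33) and dve (−0.96) did not pass the 2-fold limit. In the annotation prd overlaps 1 other gene, Abd-B 2 and Hr39 8, while abd-A and dve overlap none. Whether reads of the overlapping genes add to these counts was not tested. None of the 5 was called between 26 h and 2 h, and their log2 ratios there ran from 0.01 for Hr39 to 0.78 for prd.

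Nested members were also set beside the genes around them. Of the 17 members that overlap another gene, 15 lie inside 1 of 10 longer genes, 14 of them in introns alone. The other, Acp95EF, overlaps an exon of Spase22-23. In abdomen each of the 10 longer genes had at least as many counts as the members inside it, and in 8 the members' counts came to over 50% of the longer gene's count, while they were 43.6% of it for Scsalpha1 and 27.6% for Pde1c. Acp36DE, inside the cell adhesion gene Fas3, had 119454 counts beside 122108 listed for Fas3, a ratio of 97.8%. Sfp87B stood at 95.4% of the count of svp, and the 4 Sfp24B genes at 98.5% of that of Drgx. In head-thorax at 2 h these ratios were 5.8% for Fas3, 1.95% for svp and 6.43% for Drgx. Of these 10 genes 9 were called higher in abdomen, among them Fas3 and Drgx (log2 ratio 5.55 each) and svp (4.33), and 1, Scsalpha1, was not (−0.24). No label or header gives the counting tool or its strand setting, and whether reads of a member were also counted for the longer gene was not tested. Os-C, an exon of which overlaps Sfp84E on the opposite strand, had 1 count in abdomen beside 1758 for Sfp84E. In head-thorax Os-C had 69 counts at 2 h and 126 at 26 h, beside 12 and 14 for Sfp84E.

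Head-thorax at 26 h was set against head-thorax at 2 h, the 2 lengths of time with rivals. The members' traces were higher at 26 h in sum, and 4 of 48 passed the test upward and 0 downward by edgeR's quasi-likelihood test at 2-fold. Over all 14694 genes tested 6.21% were higher and 1.5% lower, so the share of members called higher, 4 of 48, was near the background. Most members were tested here because their abdomen libraries passed the filter on low counts. With the head-thorax pools fitted alone 21 members were left, and 3 were higher: Acp98AB, Sfp60F and Sfp87B. The median log2 ratio was 0.55 over the members and 0.00 over all genes. The summed level was 20.8 and 15.0 CPM in the 2 h libraries and 32.0 and 23.9 CPM in the 26 h libraries. The libraries of the pools did not overlap, and the mean was 1.57-fold higher at 26 h. Within each pool split library 1 was above split library 2, 1.39-fold at 2 h and by a factor of 1.34 at 26 h, so the difference between pools was little wider than that between libraries of 1 pool.

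In both head-thorax pools more members were higher in split library 1 than in split library 2. The split library number did not pair libraries across pools, and members counted in the same libraries are not independent of each other. At 2 h 31 members were higher in split library 1 and 11 in split library 2, and at 26 h 36 and 11. Among members with at least 10 counts in the pool, 84.6% at 2 h and 71.4% at 26 h were higher in split library 1, against 50.8% and 49.6% of all genes tested in those pools. By the exact binomial test no member passed adjustment over all genes in either head-thorax pool, where 0.785% of genes did at 2 h and 0.529% at 26 h. At an unadjusted p under 0.05 there were 4 of 26 members at 2 h and 9 of 28 at 26 h, against 7.83% and 7.21% of all genes. The smallest p belonged to Acp76A at 2 h, with 42 and 10 counts (adjusted p = 0.101, exact binomial test). The 22 testis and sperm genes likewise summed to 23.1 and 17.5 CPM at 2 h and 46.2 and 40.4 CPM at 26 h.

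**Figure D4:**
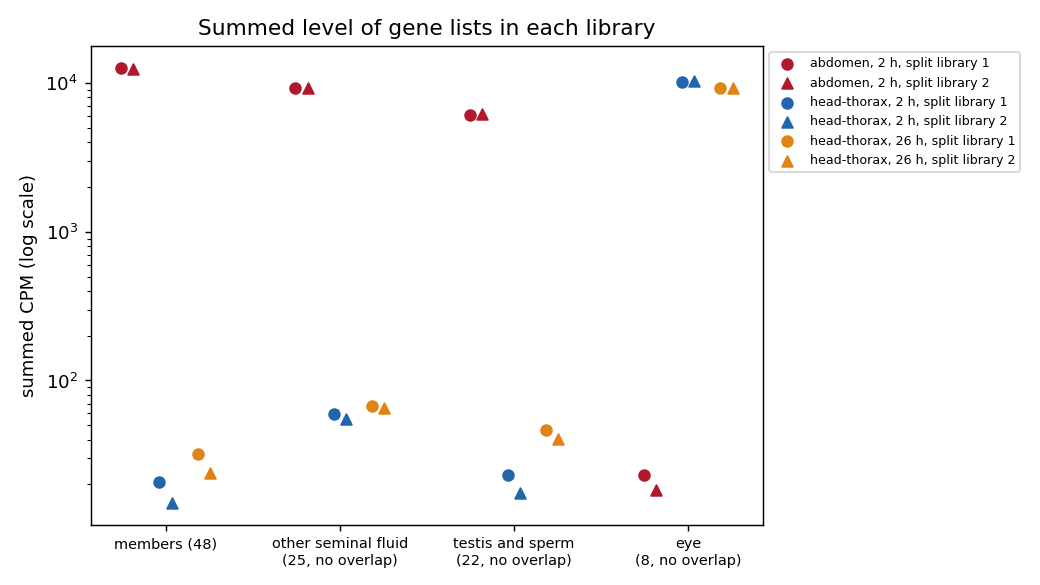
Summed CPM (log scale) of the 48 members and of 3 gene lists in each library, with circles for split library 1 and triangles for split library 2. The members lie between 15.0 and 32.0 CPM in the 4 head-thorax libraries and at 12443.4 CPM or more in both abdomen libraries, and in each head-thorax pool split library 1 is the higher.

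The 4 members called higher at 26 h were Acp98AB, Acp33A, Sfp60F and Sfp87B. Acp98AB had 5 and 7 counts at 2 h and 35 and 27 at 26 h, so both 26 h libraries were above both 2 h libraries. Its log2 ratio was 2.20 ± 0.39 (SE; adjusted p = 1.17e-06, edgeR's quasi-likelihood test). Acp33A had 5 and 4 counts at 2 h and 20 and 8 at 26 h (log2 ratio 1.47 ± 0.53). The split libraries at 26 h lay far apart, and without split library 1 of 26 h the ratio was 0.60 and no longer passed. It also did not pass without split library 1 of 2 h, at 1.34. Sfp60F had 23 and 12 counts at 2 h and 41 and 48 at 26 h (1.19 ± 0.27). Sfp87B had 32 and 18 counts at 2 h and 64 and 51 at 26 h (1.05 ± 0.24), but it was short of 2-fold at 0.95 with raw library totals, at 0.94 without split library 2 of 2 h and at 0.81 without split library 1 of 26 h. Acp33A and Sfp87B are nested in kek2 and svp. With the 2-fold limit tested inside the model, Acp98AB was the one member that passed.

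A further 5 members passed the adjusted p without reaching 2-fold. Acp36DE had 84 and 54 counts at 2 h and 150 and 113 at 26 h, a log2 ratio of 0.78 ± 0.16. Mst57Db had 54 and 30 against 68 and 81 counts (0.68 ± 0.19), Mst57Da 36 and 19 against 61 and 54 (0.91 ± 0.23), and Acp95EF 57 and 23 against 84 and 62 (0.72 ± 0.20). In CPM both 26 h libraries of these 4 were above both 2 h libraries. Acp76A went the other way, with 42 and 10 counts at 2 h against 13 and 20 at 26 h (−0.80 ± 0.33). Its 2 h libraries lay on both sides of the 26 h values, and without split library 1 of 2 h its ratio turned to 0.28. At an adjusted p under 0.05 with any fold, 8 of 48 members were higher and 1 lower, against 19.7% and 21.3% of all genes tested.

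The fitted log2 ratio was above 0 for 35 of 48 members, against 49.6% of all genes tested. Over all 48 members both 26 h libraries were above both 2 h libraries for 20, below for 4, and overlapping for 24. Of all genes tested 34.1% were above and 33.1% below. Many of these members had few counts. Among the 20, Acp29AB, Sfp24Bd, Sfp33A1 and Sfp33A4 had 0 counts at 2 h, so they could not be lower, and 2 to 4 at 26 h. The 4 below (Sfp24C1, Sfp33A2, Acp53C14c and Sfp65A) had 3 to 10 counts at 2 h. Of the 22 members with at least 20 counts in either head-thorax pool, 20 had a log2 ratio above 0 (median 0.55, from −0.80 for Acp76A to 2.20 for Acp98AB), 11 did not overlap, all of them higher, and 11 overlapped. The ovulin gene Acp26Aa was nearly level, with 15 and 13 counts at 2 h and 22 and 11 at 26 h (0.09 ± 0.37). Without split library 1 of 2 h the median over the members was 1.10, with 6 called higher. Without split library 2 of 26 h 8 were higher, and without split library 1 of 26 h the median was 0.19.

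Other lists of the reproductive tract differed from each other between 26 h and 2 h. Among testis and sperm genes 21 of 37 were called higher at 26 h and 0 lower (median log2 ratio 1.28). Over all genes tested 6.21% were higher and 1.5% lower. Among other seminal fluid genes 4 of 33 were higher and 0 lower (median 0.48), and of 9 ejaculatory duct and bulb genes 1, Dup99B, was higher and 0 lower (median 0.28). The summed level of these 9 genes was 1920.4 CPM at 2 h and 1183.0 CPM at 26 h, and EbpIII, Est-6 and CG5162 had both 26 h libraries below both 2 h libraries (log2 ratios −0.83, −0.57 and −0.83). Of the other seminal fluid genes the 4 were Obp51a (1.23 ± 0.39), aqrs (1.47 ± 0.56), Obp56f (2.19 ± 0.92) and Dup99B (1.12 ± 0.36), which is in both lists. These rest on few counts. At 2 h and 26 h Obp51a had 8 and 8 against 24 and 18, and aqrs 5 and 2 against 13 and 9. Obp56f had 2 and 0 against 8 and 3, and Dup99B 13 and 8 against 20 and 31. The eye list had 0 of 16 called (median −0.14). The part of these lists in the members' ratios was not tested.

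**Figure D5:**
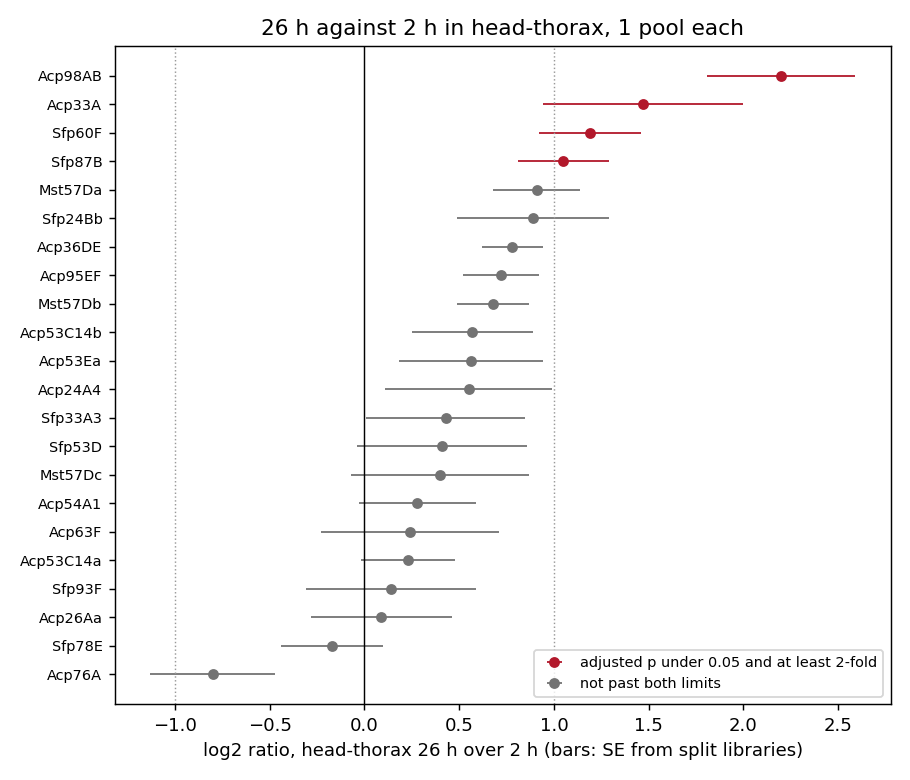
Log2 ratio of head-thorax at 26 h over 2 h for the 22 members with at least 20 counts in either pool, with SE bars from the split libraries and 1 pool per time. Red points passed an adjusted p under 0.05 and 2-fold (dotted lines), from 1.05 for Sfp87B to 2.20 for Acp98AB, and Acp76A and Sfp78E are the points below 0.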

How the data were processed

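The authors deposited 1 list of raw read counts per library, keyed by FlyBase identifier and holding genes with at least 1 count, per the file headers and values. No source used here gives the aligner, counter or build. Genes were named with the Ensembl release 115 annotation of BDGP6.54 (16735 identifiers matched, 207 did not). From the counts, CPM was computed with effective library sizes by trimmed mean of M values (TMM), and RPKM by division by merged exon length. Pools were compared in edgeR 4.0.16 (R 4.3.3; quasi-likelihood test, filterByExpr, 6 libraries in 1 fit, 3 residual degrees of freedom, technical coefficient of variation 1.63%), with Benjamini-Hochberg adjustment over 14694 genes, an adjusted p under 0.05 and at least 2-fold. SE was the log2 ratio over the square root of F. Split libraries were compared by two-sided exact binomial tests against library totals, where both counts came to 10 or more in sum. DESeq2 1.42.0 was an alternative. Intervals (95%) and the floor of 3 counts cover counting error only. On simulated counts for abdomen against head-thorax (14023 genes), 94.7% of 95 genes set to 3-fold were called, and 100.0% of 105 set to 8-fold. For 26 h against 2 h (14024 genes) these values were 99.1% of 109 and 100.0% of 91. In the head-thorax pools the median member had 11 counts at 2 h and 16 at 26 h. The share of 3-fold changes called at such low counts was not tested.

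Members, lists, tests and alternatives were chosen with earlier results of these data known. Full values were given for members by level (the 10 highest and 3 lowest in abdomen), by abdomen to head-thorax ratio (5 at each end, at least 20 counts), by call between 26 h and 2 h or between split libraries, and by cluster; in the other lists, for called genes where 5 or fewer, otherwise the 4 highest. Other genes named were singled out after their values were seen. List symbols without a match (Peb, CG10586, Mst35Ba, Mst35Bb and nos) were left out. The lists of brain neurons, flight muscle, and gut and Malpighian tubule were matched as further body-part markers: 10 of 11, 13 of 14 and 0 of 13 genes were lower in abdomen, and 0, 0 and 7 higher. The brain neuron sum in abdomen was 76.0% of that in head-thorax at 2 h, with Snap25 at 5070.7 of 5263.5 CPM. The flight muscle sum was 7782.0 CPM in abdomen, with sls, which overlaps 2 other genes, at 6141.1 CPM, against 13798.3 CPM in head-thorax at 2 h. For the 6 flight muscle genes that overlap no other gene these sums were 851 and 2888.8 CPM.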

Additional observations from a re-analysis of the deposited data

How the results depend on the processing

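Every member stayed higher in abdomen than in head-thorax at 2 h, past both limits, under the 11 alternative fits (DESeq2 size factors, raw totals, no filter, DESeq2's Wald test, the fold tested inside the model, the replicate block, only the 2 pools, and leaving out each split library), with log2 ratios from 5.87 to 14.41. Restricted to members that overlap no other gene, the count was 31 of 31. For 26 h against 2 h the count of 4 higher became 1 with the fold tested inside the model (Acp98AB), 2 over members that overlap no other gene (Acp98AB and Sfp60F), 3 of the 21 members left when the head-thorax pools were fitted alone (where Acp33A did not pass the filter), and 3 to 8 when 1 split library was left out. The count lower, 0, became 0 to 2, with Acp76A and Sfp24C1 lower without split library 2 of 2 h and Acp53C14c lower without split library 1 of 26 h. The ratio of Acp76A, −0.80, turned to 0.28 without split library 1 of 2 h and was −1.24 without split library 2; the cause was not tested. The split library number did not pair libraries across pools: deviations over genes correlated at −0.001, 0.021 and 0.072, and with the replicate block 48 members were higher in abdomen and 4 at 26 h. Over all genes, 912 higher and 220 lower at 26 h became 317 and 88 where the model tested for 2-fold and 771 and 135 by DESeq2's Wald test. The summed abdomen level, 12559.5 CPM, was 12443.4 to 12675.6 CPM in single split libraries, 13302.4 CPM with DESeq2 size factors and 14141.6 CPM with raw totals, since these scalings shift the median log2 ratio of all genes in that comparison from 0.06 to 0.20 and 0.26. The median level per length, 174 RPKM, was 158 over gene spans and 171 to 174 from 1 split library alone. With 991 and 1656 member reads in the head-thorax pools, differences in single members there rest on few counts.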
